A study of Mus musculus with 16 samples.

Results

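Hemogenic endothelium II (HE2) is the second of 2 stages through which cultured endothelial cells pass on their way to blood, and the arrays described here compare HE2 cells that lack Sp1 DNA binding with wild-type HE2 cells. The members are the 4 arrays that the labels give as hemogenic endothelium II, of 16 arrays in the series. There were 2 Sp1+/+ arrays (ES cell line E14, labelled wild type) and 2 Sp1-/- arrays (labelled SP1KO and knock-out). The other 12 arrays hold the same 2 genotypes, 2 arrays each, in Flk1+ cells, HE1 cells and progenitors. All were grown from mouse embryonic stem (ES) cells, and the labels name the strain of each as C57BL/6. According to the study's methods, Flk1+ cells were placed in blast culture, and HE2 cells were then sorted as positive for KIT, Tie2 and CD41. The Sp1-/- ES cells carry mutant alleles that still make a shortened Sp1 protein without the DNA-binding domain, and no other treatment separated the genotypes. Each genotype is 1 ES cell line, so that differences between lines and differences due to Sp1 cannot be told apart here. The genotypes were also hybridised on separate slides, 1 for each, so that slide and genotype cannot be told apart either.

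Sp1 is a ubiquitous zinc finger transcription factor that binds GC-rich boxes in promoters and enhancers. Hemogenic endothelium is the endothelium from which the first definitive blood cells bud. In the HE2 stage the cells still carry endothelial receptors such as Tie2, but have begun to display CD41, an integrin chain that marks the onset of blood formation.

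The values are deposited log2 intensities of 1-colour arrays, so a difference of 1 is a 2-fold change, and each gene is represented by its brightest probe. Differences are Sp1-/- minus Sp1+/+. A gene was called when limma gave an unadjusted p of 0.01 or less and the change was 2-fold or more. The spread came from 1 fit to all 16 arrays. The Benjamini-Hochberg adjusted p of that fit is given with many genes but not with all. Called genes given by their difference alone can have an adjusted p above 0.05, as Mmp15 (0.0556) and Plat (0.0645) do. The series' design text calls the replicates independent and biological, while a supplementary legend of the study speaks of technical replicates, so the p-values measure only the spread between these arrays, which may be technical. From 67.9% to 74.0% of spots were well above background on the HE2 arrays and 0 spots were saturated. The 4 arrays correlated with Pearson coefficients of 0.987 to 0.995 across probes.

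Sp1 itself was read first, as the targeted gene. It read 12.14 and 12.48 on the Sp1+/+ arrays and 9.44 and 10.06 on the Sp1-/- arrays, a change of -2.56 (SE 0.176, adjusted p = 1.19e-05) or 5.90-fold lower. The gene lies at chr15:102406316-102436404 in RefSeq's GRCm38.p6. Both Sp1-/- arrays were below both Sp1+/+ arrays and still well above background. The position of its probe relative to the altered part of the gene is not given in the sources used here. Of the other Sp factors, which recognise similar GC-rich sites, Sp4 was called. Sp4 read 8.34 and 7.98 on the Sp1+/+ arrays and 9.51 and 9.68 on the Sp1-/- arrays, a rise of 1.44 (SE 0.141, adjusted p = 0.000166). Sp3, which is closely related to Sp1 and widely expressed, read 9.04 and 8.78 on the Sp1+/+ arrays and 9.42 and 8.14 on the Sp1-/- arrays, with overlapping groups and an adjusted p of 0.922. Sp2 and Sp5 to Sp9 differed by between -0.09 and 0.50 and were not called. Sp5, the highest of them, was not well above background on either Sp1+/+ array.

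The promoters of Sp1 and Sp4 are shown because Sp1 was the altered factor and Sp4 the Sp gene that rose, and both carry the GC box through which such factors bind. They cover the 250 bases before the gene's start in RefSeq (GRCm38.p6), and capitals mark the GC box GGGCGG on either strand (CCGCCC is the same box on the other strand). The Sp1 window lies at chr15:102406066-102406315, plus strand, and the Sp4 window at chr12:118301441-118301690, minus strand. Each held 4 matches.
Sp1: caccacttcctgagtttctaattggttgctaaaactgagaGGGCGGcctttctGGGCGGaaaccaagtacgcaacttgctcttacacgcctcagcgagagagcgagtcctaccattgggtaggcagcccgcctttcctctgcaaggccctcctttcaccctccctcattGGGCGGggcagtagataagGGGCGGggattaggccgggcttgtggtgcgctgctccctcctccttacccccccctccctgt
Sp4: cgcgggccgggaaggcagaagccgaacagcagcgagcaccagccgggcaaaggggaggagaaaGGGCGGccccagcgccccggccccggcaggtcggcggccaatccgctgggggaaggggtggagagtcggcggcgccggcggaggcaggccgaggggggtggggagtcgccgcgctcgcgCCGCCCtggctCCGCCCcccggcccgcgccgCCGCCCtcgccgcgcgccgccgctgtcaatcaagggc

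The markers of the sort gate were measured on every HE2 array. Itga2b, which encodes CD41, read 12.21 and 11.95 on the Sp1+/+ arrays and 12.12 and 12.68 on the Sp1-/- arrays. Tek, which encodes Tie2, read 10.52 and 11.45 on the Sp1+/+ arrays and 10.61 and 10.78 on the Sp1-/- arrays. Kit, the receptor for stem cell factor, read 13.28 and 12.75 on the Sp1+/+ arrays and 12.75 and 13.04 on the Sp1-/- arrays. All 3 were above background on every HE2 array, their ranges overlapped, and none was called, with differences of 0.32, -0.29 and -0.12. The HE2 arrays were not uniform within the wild type. The embryonic globin Hbb-y, a marker of primitive red cells, read 13.57 and 11.53 on the Sp1+/+ arrays and 14.56 and 13.66 on the Sp1-/- arrays. The summed linear intensity of 4 smooth muscle markers was 157965 and 64981 on Sp1+/+ replicates 1 and 2, against 113639 and 69710 on the Sp1-/- arrays, that of 4 fibroblast markers was 10169 and 3653 against 5099 and 3543, and that of 4 endothelial markers was 37135 and 45908 against 38634 and 38749. Sp1+/+ replicate 2 thus held less globin, muscle and fibroblast signal and more endothelial signal than replicate 1. In sorted bulk populations, fewer cells of a type and less RNA per cell cannot be told apart.

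Across 37149 genes tested, 729 (1.96%) were called between Sp1-/- and Sp1+/+ HE2 cells, 289 of them higher (0.778%) and 440 lower (1.18%). Of the 20122 tested genes with a RefSeq symbol, 616 (3.06%) were called, 240 higher (1.19%) and 376 lower (1.87%), and member counts below are read against these shares. The median difference over all genes tested was 0.015. The 2 groups did not overlap in 728 of the 729 called genes. Over all genes tested, the Sp1-/- arrays lay wholly above in 24.1% and wholly below in 21.3%. The highest adjusted p among called genes was 0.11, and 661 genes changed 2-fold or more with an adjusted p of 0.05 or less (1.78%, or 2.8% of genes with a symbol). At an adjusted p of 0.01 or less the shares were 1.37% and 2.18%. The lower calls made up 60.4% of the total, but 42.1% of 1725 calls when Agilent's processed signals, scaled by their 75th percentile per array, were used instead.

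**Figure D1:**
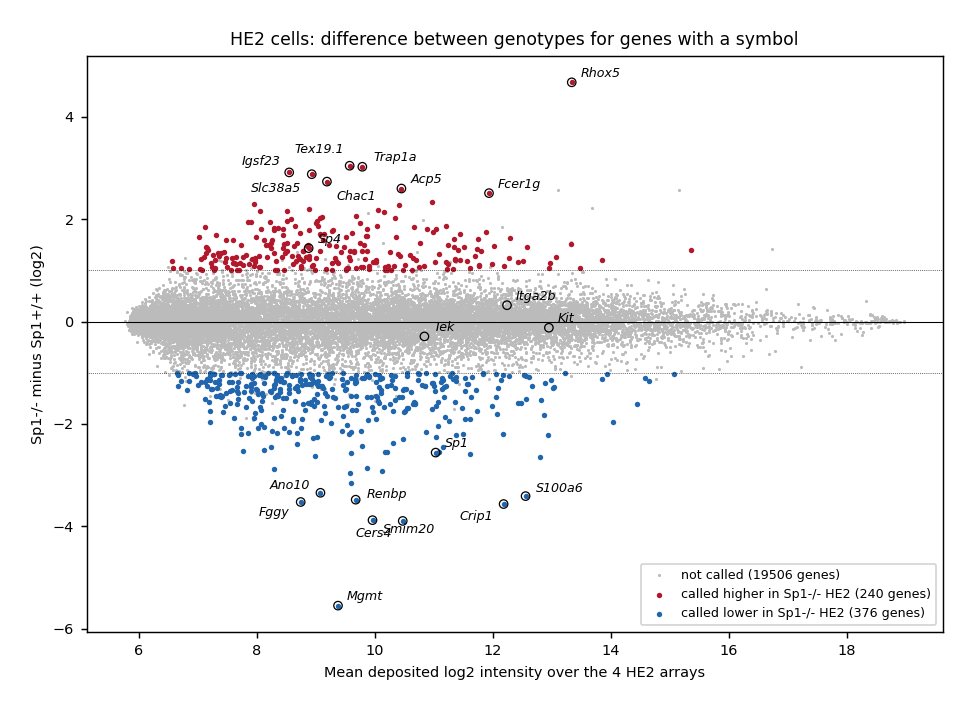
Difference between Sp1-/- and Sp1+/+ HE2 cells (log2, y axis) against the mean deposited log2 intensity over the 4 HE2 arrays (x axis) for the 20122 genes with a symbol. Each point is a gene, red or blue where called, dotted lines mark a 2-fold change, and ringed genes include Rhox5 at 4.68 and Mgmt at -5.55, while Kit, Tek and Itga2b lie within the dotted lines.

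The largest rise was that of a homeobox gene otherwise known from the reproductive tract. Rhox5, which lies on the X chromosome at chrX:37754608-37808878, read 11.01 and 10.99 on the Sp1+/+ arrays and 15.54 and 15.81 on the Sp1-/- arrays, a rise of 4.68 (SE 0.174, adjusted p = 3.15e-07) or 25.5-fold. Tex19.1, which restrains retrotransposons in germ cells, read 7.93 and 8.17 on the Sp1+/+ arrays and 11.27 and 10.92 on the Sp1-/- arrays, a rise of 3.05 (SE 0.243, adjusted p = 3.5e-05). Trap1a, an X-linked tumour antigen gene, read 8.27 and 8.28 on the Sp1+/+ arrays and 11.41 and 11.19 on the Sp1-/- arrays, a rise of 3.03 (SE 0.153, adjusted p = 2.21e-06). Within each of these genes the replicates lay close together and the groups far apart. Only Rhox5 and Tex19.1 were called among the 23 germline genes tested, whose median difference was 0.085. Igsf23 (2.92), the amino acid transporter Slc38a5 (2.88), the transcriptional coactivator Cited4 (2.33), the bikunin precursor gene Ambp (2.31) and the cholesterol acyltransferase Soat2 (2.28) were also among the 12 largest rises. Slc38a5 read 8.24 and 6.74 on the Sp1+/+ arrays, and without Sp1+/+ replicate 2 its difference was 2.13 and no longer called.

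The largest fall was that of Mgmt, which removes alkyl groups from guanine in DNA. It read 12.17 and 12.13 on the Sp1+/+ arrays and 6.54 and 6.66 on the Sp1-/- arrays, a fall of -5.55 (SE 0.123, adjusted p = 3.36e-09) or 46.9-fold. Its gene lies at chr7:136894463-137128193. Cers4, a ceramide synthase, read 12.25 and 12.59 on the Sp1+/+ arrays and 8.22 and 8.83 on the Sp1-/- arrays, a change of -3.90 (SE 0.217, adjusted p = 2.9e-06). Smim20, a small inner mitochondrial membrane protein that helps to assemble cytochrome c oxidase, read 12.06 and 11.74 on the Sp1+/+ arrays and 7.90 and 8.14 on the Sp1-/- arrays, a change of -3.88 (SE 0.113, adjusted p = 3.18e-08). In all 3 both Sp1-/- arrays were below both Sp1+/+ arrays. Crip1, a small LIM protein, read 13.60 and 14.33 on the Sp1+/+ arrays and 10.24 and 10.56 on the Sp1-/- arrays, a change of -3.57 (SE 0.238, adjusted p = 9.84e-06). S100a6, a calcium-binding S100 protein, read 13.98 and 14.54 on the Sp1+/+ arrays and 11.10 and 10.60 on the Sp1-/- arrays, a change of -3.41 (SE 0.228, adjusted p = 9.84e-06). Lyve1, a hyaluronan receptor of lymphatic and embryonic endothelium, read 10.91 and 11.20 on the Sp1+/+ arrays and 8.03 and 8.17 on the Sp1-/- arrays, a change of -2.96 (SE 0.173, adjusted p = 4.32e-06). No Sp1-/- array reached the lower Sp1+/+ array in any of the 3. The carbohydrate kinase Fggy (-3.53), the N-acetylglucosamine epimerase Renbp (-3.48), the anoctamin Ano10 (-3.35), the complement regulator Cd59a (-3.15), the glutathione transferase Gstk1 (-2.93) and Prelid2 (-2.89) completed the 12 largest falls.

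GC boxes were counted in the promoters of called genes, since Sp1 binds them. A gene was scored when GGGCGG stood on either strand in the 250 bases before at least 1 of its RefSeq starts. Of 286 genes called lower that had a promoter in the table, 215 (75.2%) held the box. Of 179 called higher, 84 (46.9%) did. The share was 49.1% of 15961 genes tested, and 56.5% of the 12628 genes above background on both arrays of at least 1 HE2 group. No test was made of these shares, and a match is not evidence of binding. The windows of Cers4 (chr8:4493155-4493404, plus strand, 1 match) and Crip1 (chr12:113151762-113152011, plus strand, 3 matches) are shown as examples from the largest falls, with the boxes in capitals.
Cers4: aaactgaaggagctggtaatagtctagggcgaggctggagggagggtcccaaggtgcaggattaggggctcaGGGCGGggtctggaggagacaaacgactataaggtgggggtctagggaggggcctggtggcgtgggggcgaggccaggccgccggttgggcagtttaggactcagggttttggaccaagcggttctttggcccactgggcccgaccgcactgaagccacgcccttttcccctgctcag
Crip1: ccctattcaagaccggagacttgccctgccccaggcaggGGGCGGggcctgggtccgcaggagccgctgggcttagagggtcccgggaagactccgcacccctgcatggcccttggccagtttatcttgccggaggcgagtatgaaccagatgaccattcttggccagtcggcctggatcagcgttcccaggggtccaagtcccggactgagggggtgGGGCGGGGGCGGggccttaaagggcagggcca
Rhox5 and Tex19.1 held no GC box in the same window.

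Of 67 gene lists examined, 24 had 3 or more members called and 21 had none. Calls in the lists of blood cell effectors and of the stress response were nearly all rises in Sp1-/- HE2 cells, and those in the HoxD, matrix protease, Wnt and fatty acid lists were falls.

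**Figure D2:**
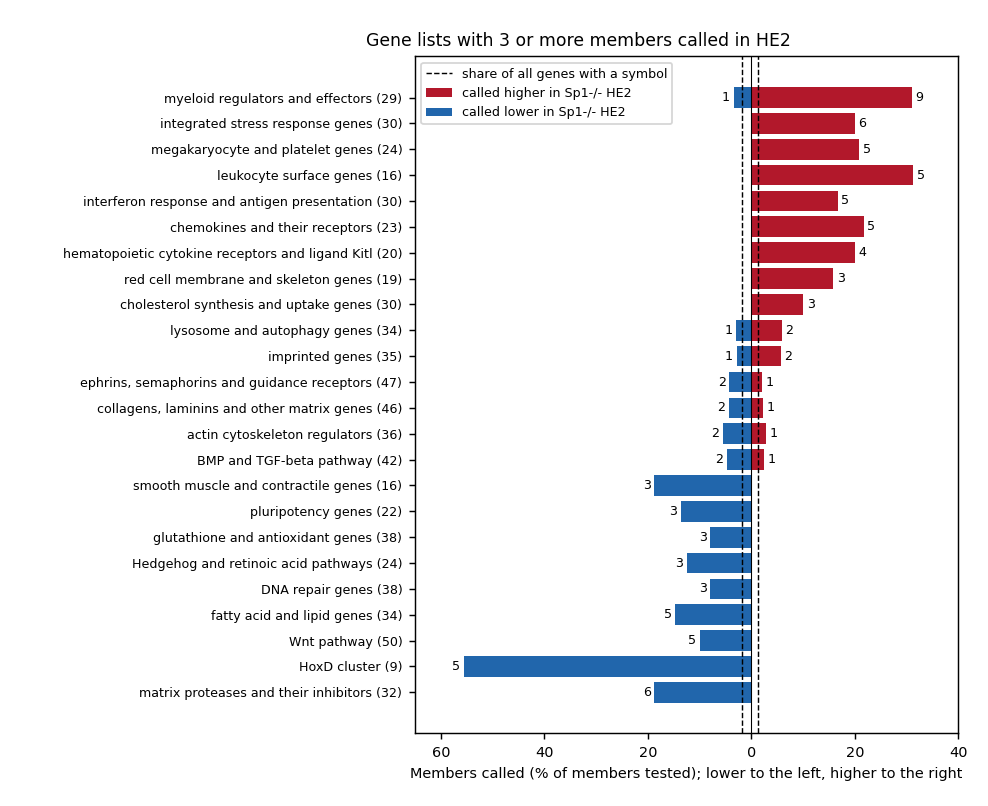
Members called in HE2 as a percentage of the members tested (x axis; higher to the right in red, lower to the left in blue) for the 24 lists with 3 or more called members. Bar ends give the number of members called, brackets the number tested, and dashed lines the share among all genes with a symbol (1.19% higher, 1.87% lower). The myeloid list had 9 of 29 members higher and 1 lower, and the HoxD list 5 of 9 lower.

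Myeloid effector genes were the group with the most calls. Of 29 myeloid regulators and effectors tested, 9 were called higher and 1 lower, with a median difference of 0.71 beside 0.015 over all genes. Fcer1g, the signalling chain shared by several Fc receptors, read 10.53 and 10.83 on the Sp1+/+ arrays and 12.97 and 13.41 on the Sp1-/- arrays, a rise of 2.51 (SE 0.268, adjusted p = 0.000302) or 5.70-fold. Fcgr3, a low-affinity receptor for immunoglobulin G, read 7.54 and 7.52 on the Sp1+/+ arrays and 9.33 and 9.66 on the Sp1-/- arrays, a rise of 1.97 (SE 0.127, adjusted p = 7.86e-06). Tyrobp, an adaptor with an activating motif, read 10.55 and 10.01 on the Sp1+/+ arrays and 11.99 and 12.29 on the Sp1-/- arrays, a rise of 1.86 (SE 0.37, adjusted p = 0.0134). All 3 belong to activating receptor complexes of myeloid cells. Csf1r, the macrophage colony-stimulating factor receptor, read 11.28 and 10.74 on the Sp1+/+ arrays and 12.24 and 13.28 on the Sp1-/- arrays, a rise of 1.75 (SE 0.355, adjusted p = 0.0149). Ncf1, a cytosolic subunit of the phagocyte oxidase, read 7.58 and 7.62 on the Sp1+/+ arrays and 9.12 and 9.48 on the Sp1-/- arrays, a rise of 1.70 (SE 0.158, adjusted p = 0.000108). Ncf4, another cytosolic subunit of that oxidase, read 9.16 and 8.98 on the Sp1+/+ arrays and 10.55 and 10.59 on the Sp1-/- arrays, a rise of 1.5 (SE 0.296, adjusted p = 0.0128). By contrast Cyba, a membrane subunit of the oxidase, was the member that fell. It read 13.15 and 13.40 on the Sp1+/+ arrays and 11.56 and 11.79 on the Sp1-/- arrays, a change of -1.60 (SE 0.17, adjusted p = 0.000286). The lipopolysaccharide co-receptor Cd14 (1.54), the actin-binding coronin Coro1a (1.47) and Ms4a3 (1.0) were the remaining rises. When 1 HE2 array was left out at a time, 9 to 12 members were called higher.

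Regulators of blood cell fate were read as well. Spi1, which encodes the myeloid master factor PU.1, read 8.09 and 7.65 on the Sp1+/+ arrays and 8.67 and 8.93 on the Sp1-/- arrays, a difference of 0.93 (SE 0.157, adjusted p = 0.00535) that stayed under 2-fold. None of the 24 hematopoietic transcription factors tested was called with all arrays, and their median difference was -0.155. Gfi1, a repressor of the endothelial programme, read 11.66 and 11.24 on the Sp1+/+ arrays and 10.73 and 10.51 on the Sp1-/- arrays, and Gfi1b read 12.91 and 12.82 on the Sp1+/+ arrays and 13.48 and 13.79 on the Sp1-/- arrays. Runx1, which is required for blood to emerge from hemogenic endothelium, read 12.96 and 12.54 on the Sp1+/+ arrays and 13.36 and 13.26 on the Sp1-/- arrays. Differences were -0.83, 0.77 and 0.56, and none had an adjusted p of 0.05 or less.

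Some leukocyte genes outside the myeloid list also rose. Of 16 leukocyte surface genes, 5 were called higher and 0 lower. Selplg, the ligand for P-selectin, read 7.64 and 7.16 on the Sp1+/+ arrays and 9.03 and 9.34 on the Sp1-/- arrays, a rise of 1.79 (SE 0.187, adjusted p = 0.000267). Ptprc, which encodes the pan-leukocyte phosphatase CD45, read 6.81 and 7.15 on the Sp1+/+ arrays and 8.13 and 8.81 on the Sp1-/- arrays, a rise of 1.49 (SE 0.28, adjusted p = 0.0098). The tetraspanin Cd53 (1.15), Cd52 (1.25, adjusted p = 0.0906) and the lysosomal protein Laptm5 (1.09, adjusted p = 0.0449) were the others. Members called higher numbered 4 without Sp1+/+ replicate 1, 3 without Sp1+/+ replicate 2, 3 without Sp1-/- replicate 1 and 2 without Sp1-/- replicate 2. Of 20 hematopoietic cytokine receptors (with Kitl), 4 were called higher and 0 lower: Csf1r, the granulocyte-macrophage receptor chains Csf2rb2 (1.37) and Csf2rb (1.26), and the interleukin receptor Il10ra (1.07). That count was 2 without Sp1+/+ replicate 2 and 2 without Sp1-/- replicate 2.

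Among 23 chemokines and their receptors, 5 were called higher and 0 lower, with a median of 0.475. Ccl3, a chemokine that draws monocytes, read 8.50 and 8.79 on the Sp1+/+ arrays and 10.82 and 10.58 on the Sp1-/- arrays, a rise of 2.06 (SE 0.301, adjusted p = 0.00241). Cx3cr1, the fractalkine receptor, read 6.98 and 6.97 on the Sp1+/+ arrays and 9.21 and 9.06 on the Sp1-/- arrays, a rise of 2.16 (SE 0.32, adjusted p = 0.00258). Ccl4 (1.60), Cxcr3 (1.39) and Cxcr2 (1.26) rose as well, and 5 or 6 members were called whichever array was left out. Of 24 megakaryocyte and platelet genes, 5 were called higher and 0 lower. Mmrn1, the platelet protein multimerin, read 8.89 and 8.61 on the Sp1+/+ arrays and 10.55 and 10.43 on the Sp1-/- arrays, a rise of 1.74 (SE 0.156, adjusted p = 8.44e-05). Treml1, a receptor of platelet granules, read 9.26 and 8.81 on the Sp1+/+ arrays and 10.45 and 10.95 on the Sp1-/- arrays, a rise of 1.67 (SE 0.246, adjusted p = 0.00257). The platelet glycoprotein Gp5 (1.25), the platelet tubulin Tubb1 (1.14) and Vwf, the von Willebrand factor gene (1.08), were also higher, and 3 members were called without Sp1-/- replicate 2. The platelet chemokine Pf4, a defining megakaryocyte marker, was not called and read 10.86 and 10.62 on the Sp1+/+ arrays and 10.34 and 10.41 on the Sp1-/- arrays.

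Markers of mature blood cells were examined beside these groups. Of 3 macrophage markers tested, Csf1r was called, while Adgre1 read 7.38 and 7.34 on the Sp1+/+ arrays and 7.48 and 7.53 on the Sp1-/- arrays and Lyz2 read 8.65 and 8.21 on the Sp1+/+ arrays and 8.56 and 8.71 on the Sp1-/- arrays. All 3 were above background on every HE2 array. The summed linear intensity of the macrophage markers was 3055 and 2168 on the Sp1+/+ arrays and 5393 and 10550 on the Sp1-/- arrays, and that of 5 blood markers (Runx1, Gfi1, Gfi1b, Spi1, Ptprc) was 19285 and 15948 against 24325 and 26369. That of 4 megakaryocyte markers was 2586 and 2227 against 2363 and 2698. Such sums mostly follow the brightest members, which were Csf1r for macrophages, Runx1 and Gfi1b for blood and Pf4 for megakaryocytes. Of these, only Csf1r was called. The part of more mature blood cells in the rises of the myeloid, leukocyte and chemokine genes was not tested.

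**Figure D3:**
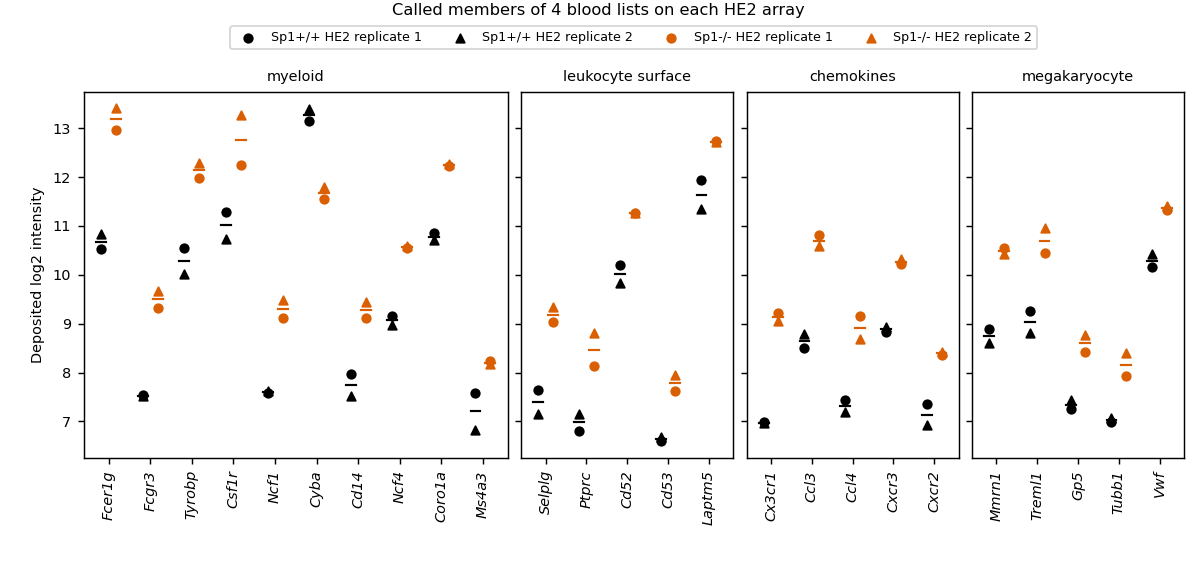
Deposited log2 intensity (y axis) on each HE2 array for every called member of 4 blood lists (x axis), with Sp1+/+ in black, Sp1-/- in orange, circles for replicate 1, triangles for replicate 2 and bars for group means. The Sp1-/- arrays lie above both Sp1+/+ arrays for every gene shown but Cyba, which lies below them.

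Red cell genes had positive differences in most members and few calls. All 10 globin genes tested had a positive difference, with a median of 1.25, and 0 were called. Hbb-bh1, an embryonic beta-like globin, read 16.59 and 15.47 on the Sp1+/+ arrays and 17.46 and 17.42 on the Sp1-/- arrays, with an adjusted p of 0.559. Hba-x, the embryonic zeta globin, read 14.06 and 11.08 on the Sp1+/+ arrays and 14.87 and 14.72 on the Sp1-/- arrays, with an adjusted p of 0.512. Hba-a2, an adult alpha globin, read 15.27 and 12.47 on the Sp1+/+ arrays and 16.45 and 16.43 on the Sp1-/- arrays, with an adjusted p of 0.398. In each the Sp1-/- arrays were close together and above both Sp1+/+ arrays, while Sp1+/+ replicate 2 was well below replicate 1. Without Sp1+/+ replicate 2 the median of the globins was 0.55, and without replicate 1 it was 1.80. Near-identical globin copies can share probe signal, so values of single copies are uncertain. Of 19 red cell membrane and skeleton genes, 3 were called higher and 0 lower. Slc4a1, the band 3 anion exchanger, read 8.31 and 7.58 on the Sp1+/+ arrays and 9.27 and 9.19 on the Sp1-/- arrays, a rise of 1.29 (SE 0.339, adjusted p = 0.0524). The adducin Add2 also rose (1.27), and 0 members were called without Sp1+/+ replicate 2, without Sp1-/- replicate 1 or without Sp1-/- replicate 2. None of the 12 genes in the heme synthesis list, enzymes and mitochondrial transporters, was called (median 0.2625). Alas1 had a negative difference (-0.345), Cpox had a mean of 11.8 in both groups, and the other members had positive differences. Of 12 erythroid regulators, Trim10 was called (1.36, above background on 1 of 2 Sp1+/+ arrays), and it was not called without Sp1+/+ replicate 2 (0.965) or Sp1-/- replicate 2 (1.195). The regulators with larger differences, named here after their values were seen, did not pass. Gata1, a master factor of red cells and megakaryocytes, read 11.29 and 11.17 on the Sp1+/+ arrays and 12.90 and 13.25 on the Sp1-/- arrays, a difference of 1.85 (SE 0.645, adjusted p = 0.145). Klf1, a Krüppel-like factor of red cells, read 9.12 and 7.98 on the Sp1+/+ arrays and 10.02 and 10.36 on the Sp1-/- arrays, a difference of 1.64 (SE 0.587, adjusted p = 0.156). Both Sp1-/- arrays were above both Sp1+/+ arrays for each. Bcl11a went the other way without a call, at 9.86 and 9.03 against 8.34 and 8.47 (difference -1.04, adjusted p = 0.18). Tal1, Zfpm1, Sox6 and Nfe2l2 of the same list also had negative differences.

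A set of integrated stress response genes rose in Sp1-/- HE2 cells. In this response, phosphorylation of the initiation factor eIF2 favours translation of the transcription factor ATF4, which drives genes for amino acid supply and, with CHOP, for cell death. Of 30 such genes, 6 were called higher and 0 lower, with a median of 0.4575, and 24 differences were positive. Atf4 read 14.57 and 14.75 on the Sp1+/+ arrays and 16.18 and 15.95 on the Sp1-/- arrays, a rise of 1.41 (SE 0.125, adjusted p = 7.99e-05). Ddit3, which encodes CHOP, read 8.98 and 8.59 on the Sp1+/+ arrays and 11.11 and 10.30 on the Sp1-/- arrays, a rise of 1.92 (SE 0.271, adjusted p = 0.00188). Both transcription factors of the pathway were therefore higher on each Sp1-/- array. Chac1, a glutathione-degrading target, read 7.71 and 7.93 on the Sp1+/+ arrays and 10.34 and 10.77 on the Sp1-/- arrays, a rise of 2.74 (SE 0.208, adjusted p = 2.47e-05) or 6.66-fold. Trib3, a pseudokinase target that feeds back on ATF4, read 8.87 and 9.05 on the Sp1+/+ arrays and 11.09 and 11.21 on the Sp1-/- arrays, a rise of 2.19 (SE 0.165, adjusted p = 2.31e-05). The stress protein gene Nupr1 (1.37) and the mitochondrial folate enzyme Mthfd2 (1.09) completed the group. Between 5 and 6 members were called when 1 array was left out. None of 20 endoplasmic reticulum chaperones was called (median -0.01), and the chaperone Hspa5 read 15.47 and 15.65 on the Sp1+/+ arrays and 16.10 and 15.60 on the Sp1-/- arrays.

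The promoters of the 6 called stress genes were searched for TGATGCAA (TTGCATCA on the other strand), a form of the composite site that ATF4 shares with C/EBP factors such as CHOP. It stood in 2 of the 6, Chac1 and Nupr1, and in 0.789% of the 15961 genes with a promoter. Both windows are shown, at chr2:119350992-119351241, plus strand for Chac1 and at chr7:126625471-126625720, minus strand for Nupr1, with the match in capitals.
Chac1: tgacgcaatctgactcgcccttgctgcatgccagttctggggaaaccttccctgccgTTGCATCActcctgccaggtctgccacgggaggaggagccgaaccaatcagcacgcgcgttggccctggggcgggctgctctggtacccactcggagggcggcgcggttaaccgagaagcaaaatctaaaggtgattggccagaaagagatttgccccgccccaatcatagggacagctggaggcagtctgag
Nupr1: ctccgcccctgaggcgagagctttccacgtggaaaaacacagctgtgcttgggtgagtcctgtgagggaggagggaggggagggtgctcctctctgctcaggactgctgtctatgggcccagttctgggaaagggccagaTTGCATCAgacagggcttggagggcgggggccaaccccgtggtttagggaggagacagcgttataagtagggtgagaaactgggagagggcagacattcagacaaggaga
The sequence GAGGAAGT, a form of the PU.1 site, was searched for in the same way (ACTTCCTC on the other strand). It was found in 0 of the 5 called myeloid genes that had a promoter in the table, and in 2.68% of all genes with one. At that share 0 of 5 would be likely for any genes, so no conclusion about PU.1 is drawn.

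Several patterning genes of the HoxD cluster fell in Sp1-/- HE2 cells. Hox genes encode homeodomain factors that lie in 4 clusters and record position along the body axis. Of 9 HoxD genes, 5 were called lower and 0 higher, with a median of -1.25 (-1.235 with genes below background at their bound). Hoxd4 read 8.99 and 8.67 on the Sp1+/+ arrays and 6.68 and 6.57 on the Sp1-/- arrays, a change of -2.21 (SE 0.475, adjusted p = 0.0205). Hoxd8 read 9.63 and 9.38 on the Sp1+/+ arrays and 7.67 and 7.19 on the Sp1-/- arrays, a change of -2.08 (SE 0.393, adjusted p = 0.0103). Hoxd9 read 8.20 and 8.17 on the Sp1+/+ arrays and 6.34 and 6.10 on the Sp1-/- arrays, a change of -1.97 (SE 0.367, adjusted p = 0.00957). The groups did not overlap in any of the 3. Hoxd1 also fell (-1.75), and Hoxd3, not well above background on either Sp1-/- array, was at least 2.35-fold lower. Between 4 and 5 members were called when 1 array was left out. The HoxB cluster had 10 negative differences of 10, a median of -0.98 and 0 calls. Hoxb1 (-0.063) and Hoxb13 (-0.08) were not well above background on any HE2 array, so the sign of their differences is uncertain. Hoxb4, which is known for expanding blood stem cells, read 10.78 and 11.48 on the Sp1+/+ arrays and 9.83 and 9.81 on the Sp1-/- arrays, with an adjusted p of 0.158. Without Sp1+/+ replicate 1 the HoxB median was -1.495 with 2 calls, and without replicate 2 it was -0.53 with 0. In the HoxC cluster and among Cdx, Meis and Pbx genes 0 were called.

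Of 24 genes of the Hedgehog and retinoic acid pathways, 3 were called lower, among them Cyp26b1 and Rarg. Cyp26b1, which degrades retinoic acid, read 12.23 and 10.73 on the Sp1+/+ arrays and 9.07 and 8.78 on the Sp1-/- arrays, a change of -2.56 (SE 0.632, adjusted p = 0.0392). Rarg, a retinoic acid receptor, read 10.58 and 11.38 on the Sp1+/+ arrays and 9.62 and 9.76 on the Sp1-/- arrays, a change of -1.29 (SE 0.201, adjusted p = 0.00339). Cyp26b1 was not called without Sp1+/+ replicate 1 (-1.805) or Sp1-/- replicate 2 (-2.41), nor Rarg without Sp1+/+ replicate 2 (-0.89). Counts of called members were 2 without any of Sp1+/+ replicate 1, Sp1+/+ replicate 2 and Sp1-/- replicate 1, and 1 without Sp1-/- replicate 2. Of 50 Wnt pathway genes, 5 were called lower and 0 higher. Tcf7, a nuclear effector of Wnt signals, read 8.78 and 8.76 on the Sp1+/+ arrays and 6.74 and 6.64 on the Sp1-/- arrays, a change of -2.08 (SE 0.106, adjusted p = 2.21e-06). The receptor Fzd2 (-1.27), Dkk3 (-1.21) and the secreted Wnt agonist Rspo3 (-1.12) fell too. The ligand Wnt9a, not well above background on either Sp1-/- array, was at least 2.24-fold lower. Only 2 Wnt genes were called without Sp1-/- replicate 2, and the pathway's median was -0.04. In the BMP and TGF-beta pathway 2 of 42 genes fell, the secreted modulator Bmper (-1.93) and the receptor Acvrl1 (-1.32), and the antagonist Nog rose (1.38). Bmper was called whichever array was left out, while Acvrl1 and Nog were called only when the array left out was Sp1+/+ replicate 1, and the falls numbered 4 without that array and 1 without Sp1-/- replicate 2.

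Endothelial genes had mostly negative differences and few calls. Of 24 endothelial receptors and junction genes, 19 had a negative difference and the median was -0.28. Nrp1, a co-receptor for vascular growth factor, read 9.13 and 9.52 on the Sp1+/+ arrays and 8.24 and 7.85 on the Sp1-/- arrays, a change of -1.28 (SE 0.319, adjusted p = 0.0404), and Vwf was the member that rose. Nrp1 was not called without Sp1+/+ replicate 2 or without Sp1-/- replicate 2 (-1.085 each), nor Vwf without Sp1+/+ replicate 1 (0.945) or Sp1-/- replicate 2 (1.045). Cdh5, the endothelial cadherin, read 13.27 and 14.26 on the Sp1+/+ arrays and 13.09 and 12.88 on the Sp1-/- arrays, and Kdr, which encodes Flk1, read 13.99 and 13.73 on the Sp1+/+ arrays and 14.18 and 14.32 on the Sp1-/- arrays. Neither was called. The list's median was -0.80 without Sp1+/+ replicate 1 and 0.12 without Sp1+/+ replicate 2, so that its sign turned without Sp1+/+ replicate 2. None of 24 arterial and Notch genes was called with all arrays, 6 were called lower without Sp1+/+ replicate 1, and 1 was called higher without Sp1-/- replicate 2.

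Some matrix protease and contractile genes fell. Of 32 matrix proteases and inhibitors, 6 were called lower and 0 higher, and 25 differences were negative (median -0.36). Mmp2, a gelatinase, read 11.16 and 11.66 on the Sp1+/+ arrays and 9.74 and 9.72 on the Sp1-/- arrays, a change of -1.68 (SE 0.185, adjusted p = 0.000368). Timp1, an inhibitor of such enzymes, read 9.42 and 9.72 on the Sp1+/+ arrays and 8.05 and 7.29 on the Sp1-/- arrays, a change of -1.90 (SE 0.224, adjusted p = 0.000566). Both were lower on each Sp1-/- array than on either Sp1+/+ array. The plasminogen activator Plat (-1.05) and the metalloproteinases Mmp11 (-1.27) and Mmp15 (-1.30) fell too. Members called numbered 3 without Sp1+/+ replicate 2 and 3 without Sp1-/- replicate 2. Of 16 smooth muscle and contractile genes, 3 fell: Tpm2 (-1.75), Myl9 (-1.27) and Actg2 (-1.88, with 9.44 and 7.67 on the Sp1+/+ arrays). Only 1 was called without Sp1+/+ replicate 1, 2 without Sp1-/- replicate 1 and 2 without Sp1-/- replicate 2, while the defining markers Acta2 (-0.10) and Tagln (-0.29) were not called. S100a4 (10.25 and 10.76 against 8.51 and 8.22, difference -2.14) and Twist1 (9.22 and 9.07 against 7.33 and 6.84, difference -2.06), both linked to mesenchymal cells, were the called members of 20 mesenchyme and fibroblast genes. The part of the muscle and fibroblast signal in these falls was not tested.

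Lipid and redox metabolism followed. Of 34 fatty acid and lipid genes, 5 were called lower and 0 higher, and the median of the list was 0.02. Cpt2, an inner membrane enzyme that completes the transfer of fatty acids into mitochondria, read 12.54 and 12.42 on the Sp1+/+ arrays and 10.29 and 10.24 on the Sp1-/- arrays, a change of -2.22 (SE 0.135, adjusted p = 5.41e-06). Cpt1a, the outer membrane enzyme that begins it, read 8.79 and 9.37 on the Sp1+/+ arrays and 7.02 and 7.13 on the Sp1-/- arrays, a change of -2.01 (SE 0.211, adjusted p = 0.000269). Both ends of the carnitine shuttle were thus lower on each Sp1-/- array. The long-chain acyl-CoA dehydrogenase Acadl (-1.2), Cpt1c (-1.18) and Fads3 (-1.04) were the other falls, and 3 members were called without Sp1-/- replicate 2. Of 38 glutathione and antioxidant genes, Mgst1 (-1.78), Nqo1 (-1.65) and Gstt3 (-1.07) fell, Gstt3 was not called without Sp1+/+ replicate 2 (-0.945), and the count was 5 without Sp1+/+ replicate 1. Of 30 cholesterol genes, the sterol exporter Abcg1 (1.71) and the synthesis enzymes Lss (1.195) and Tm7sf2 (1.15) rose. Besides Mgmt, the DNA repair genes Neil3 (10.82 and 10.88 against 8.89 and 8.97, difference -1.92) and Lig4 (9.63 and 9.64 against 8.42 and 8.41, difference -1.22) fell, 3 of 38 genes of that list.

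**Figure D4:**
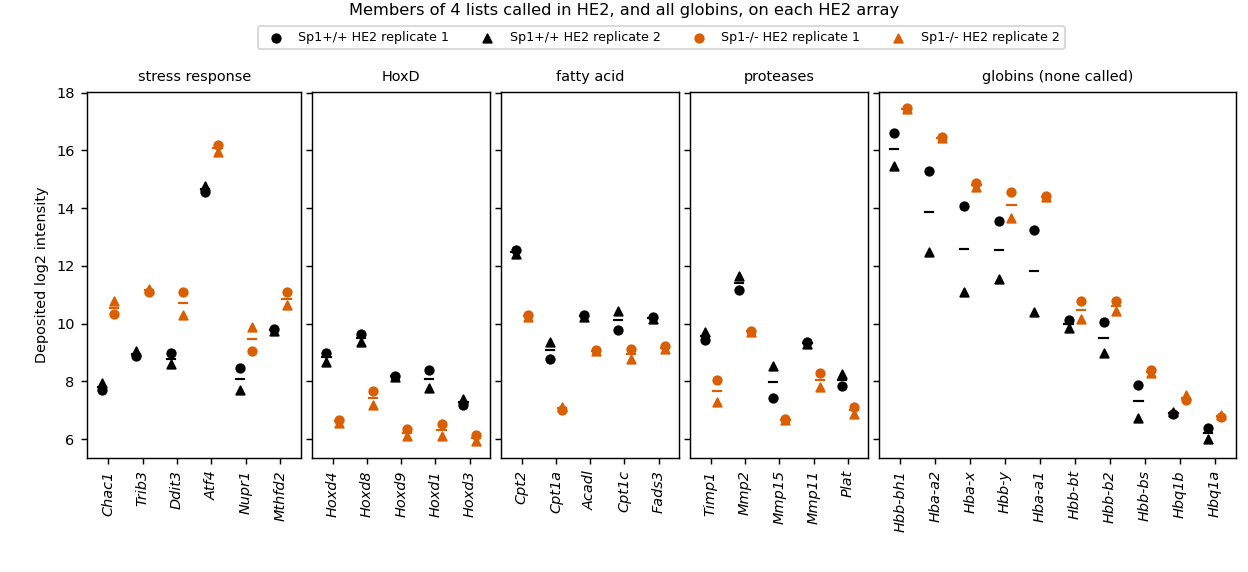
Deposited log2 intensity (y axis) on each HE2 array for the called members of the stress response, HoxD and fatty acid lists, 5 of 6 called members of the matrix protease list and all 10 globins (x axis), with Sp1+/+ in black, Sp1-/- in orange, circles for replicate 1, triangles for replicate 2 and bars for group means. The 2 Sp1+/+ arrays stand close together in most called genes but far apart in the embryonic and alpha globins.

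Interferon response and antigen presentation genes had 5 rises and 0 falls among 30 genes. H2-T23, a nonclassical class I molecule, read 9.81 and 10.08 on the Sp1+/+ arrays and 11.22 and 11.27 on the Sp1-/- arrays, a rise of 1.30 (SE 0.108, adjusted p = 4.57e-05). Ifitm1, an interferon-induced membrane protein, read 12.83 and 12.30 on the Sp1+/+ arrays and 14.02 and 14.15 on the Sp1-/- arrays, a rise of 1.52 (SE 0.378, adjusted p = 0.0402). Ifit3 (1.35, above background on 1 of 2 Sp1+/+ arrays), Oas1a (1.23) and Oasl2 (1.17) were also called, and 3 members were called without Sp1+/+ replicate 2. In the lysosome list the protease Ctsz fell (11.74 and 12.16 against 9.72 and 9.88, difference -2.15), while Ctsc rose (1.22) and Ctss, not well above background on either Sp1+/+ array, was at least 2.73-fold higher. H19, an imprinted noncoding RNA, read 13.59 and 14.66 on the Sp1+/+ arrays and 11.21 and 11.74 on the Sp1-/- arrays, a change of -2.65 (SE 0.376, adjusted p = 0.002). Of 35 imprinted genes it was the fall, while Copg2, a coatomer subunit (11.59 and 11.27 against 12.44 and 12.67, difference 1.13), and Plagl1, a zinc finger factor (11.08 and 11.47 against 12.99 and 12.52, difference 1.48, adjusted p = 0.0757), rose. Copg2 was not called without Sp1+/+ replicate 2 (0.965), and Plagl1 was called only when the array left out was Sp1-/- replicate 2. Hspb1, a small heat shock protein gene, read 14.29 and 13.78 on the Sp1+/+ arrays and 12.26 and 11.38 on the Sp1-/- arrays, a change of -2.22 (SE 0.337, adjusted p = 0.00299). Of 22 pluripotency genes, Dppa4 (-1.67), Dppa5a (-1.45) and Tbx3 (-1.33, adjusted p = 0.109) fell, and Tbx3 was not called without Sp1+/+ replicate 2 (-0.58), Sp1-/- replicate 1 (-1.545) or Sp1-/- replicate 2 (-1.105).

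Adhesion, matrix and cytoskeletal genes were called in both directions. Of 46 collagens, laminins and other matrix genes, 1 rose and 2 fell. Col5a1, a fibrillar collagen chain, read 10.91 and 10.96 on the Sp1+/+ arrays and 12.47 and 12.63 on the Sp1-/- arrays, a rise of 1.62 (SE 0.129, adjusted p = 3.58e-05). The basement membrane genes Col4a1 (-1.28, adjusted p = 0.0934) and Nid1 (-1.22, adjusted p = 0.0658) were the falls, which numbered 5 without Sp1+/+ replicate 1, 1 without Sp1+/+ replicate 2 and 0 without Sp1-/- replicate 2. Among 23 integrins, Itgb7, a chain of leukocyte homing receptors, rose (7.22 and 7.12 against 8.67 and 8.96, difference 1.65), and Itga3, part of a laminin receptor, fell (9.33 and 9.55 against 8.30 and 8.16, difference -1.21). Rac2, the Rac GTPase of blood cells, rose (8.52 and 8.26 against 10.16 and 10.21, difference 1.80), while Arhgef3 (-1.02) and Cdc42ep1 (-1.08) fell among 36 regulators of the actin cytoskeleton. Neither fall was called without Sp1+/+ replicate 2 (-0.535 and -0.765) or without Sp1-/- replicate 2 (-1.06 and -0.935), nor that of Arhgef3 without Sp1-/- replicate 1 (-0.97). Plxnd1, a semaphorin receptor of vessels, read 14.92 and 15.57 on the Sp1+/+ arrays and 13.45 and 13.83 on the Sp1-/- arrays, a change of -1.61 (SE 0.298, adjusted p = 0.00936). Of the other guidance genes, 47 in all, the semaphorin Sema4d rose (1.16) and the ephrin Efnb1 fell (-1.0, not called at -0.665 without Sp1+/+ replicate 1 or at -0.935 without Sp1-/- replicate 1). The falls in that list numbered 6 without Sp1+/+ replicate 1.

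Further lists held 1 or 2 calls. Fas, a death receptor, read 8.53 and 8.42 on the Sp1+/+ arrays and 6.995 and 7.19 on the Sp1-/- arrays, a change of -1.38 (SE 0.179, adjusted p = 0.0011). It fell with Phlda3 (-1.12) among 34 p53 targets and apoptosis genes, where 4 were called without Sp1+/+ replicate 1, 4 without Sp1-/- replicate 1 and 1 when either other array was left out. Ass1, the argininosuccinate synthase, read 11.22 and 11.68 on the Sp1+/+ arrays and 9.89 and 9.86 on the Sp1-/- arrays, a change of -1.58 (SE 0.156, adjusted p = 0.000172). The glycolytic enolase Eno2 (-1.18) and the vasoactive peptide gene Adm (-1.10) were lower among 37 hypoxia and glycolysis genes, and Cox6b2, a cytochrome c oxidase subunit, among 42 genes of the TCA cycle and respiratory chain (-1.76). Adm was not called without Sp1+/+ replicate 1 (-0.93) or Sp1-/- replicate 1 (-0.925). The Polycomb protein gene Cbx6 was lower as well (-1.11, and -0.905 with no call without Sp1-/- replicate 2). No other member of the Polycomb and trithorax list was called. Cbx6 had 3 probes, and 1 of the further ones moved the same way. Nkx2-5, a cardiac transcription factor, read 8.62 and 9.76 on the Sp1+/+ arrays and 7.91 and 7.47 on the Sp1-/- arrays, a change of -1.5 (SE 0.372, adjusted p = 0.0397). Myl4, an atrial myosin chain also used in the embryonic heart, read 9.73 and 9.05 on the Sp1+/+ arrays and 10.74 and 10.37 on the Sp1-/- arrays, a rise of 1.17 (SE 0.273, adjusted p = 0.0305). They were the calls among 27 cardiac genes, where falls numbered 0 to 3 and rises 0 to 2 with 1 array left out. Nkx2-5 was not called without Sp1+/+ replicate 2 (-0.93) or Sp1-/- replicate 2 (-1.28), nor Myl4 without Sp1+/+ replicate 2 (0.825) or Sp1-/- replicate 1 (0.98).

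Genes of proliferation were not among the calls. None of 40 DNA replication genes, 34 mitosis genes and 29 G1 cyclins and CDK inhibitors was called with all arrays, with medians of -0.0025, 0.03 and 0.05. The replicative helicase gene Mcm6 read 16.31 and 16.13 on the Sp1+/+ arrays and 16.23 and 16.40 on the Sp1-/- arrays. Of 60 ribosomal protein genes, Rps4l was called (1.195), and the median was 0.01. Also without a call were 18 linker and variant histones, 17 DNA methylation and demethylation enzymes, 17 Klf factors, 28 nuclear receptors, 24 immediate early genes, 20 neural, 20 epithelial, 18 endoderm and 20 primitive streak genes. Leaving out arrays 1 at a time gave at most 1 call in each of the 3 proliferation lists.

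Whether the HE2 difference departed from that at the other stages was tested directly, as the HE2 difference minus the mean difference in Flk1+ cells, HE1 cells and progenitors. It was called for 118 genes (0.318%), 85 higher (0.229%) and 33 lower (0.0888%), and 26 of these also had an adjusted p of 0.05 or less. The count was 235 without Sp1+/+ replicate 1 (144 lower) and 197 without Sp1-/- replicate 1 (171 higher), and 64 were lower without Sp1+/+ replicate 2. Of the 118, 85 were called within HE2. Ccl3 differed by 2.06 in HE2 but by -0.02 in Flk1+ cells, -0.40 in HE1 and 0.89 in progenitors, and the departure was 1.90 (SE 0.347, adjusted p = 0.103). Fcer1g differed by 2.51 in HE2 and by -0.06 in Flk1+ cells, 0.89 in HE1 and 1.80 in progenitors, with a departure of 1.64 (SE 0.309, adjusted p = 0.118). Arhgap9, a GTPase-activating protein of blood cells, differed by 1.65 in HE2 and by -0.32 in Flk1+ cells, -0.23 in HE1 and 0.53 in progenitors, with a departure of 1.65 (SE 0.298, adjusted p = 0.0965). In these 3 genes HE2 had the highest of the 4 differences. Acp5, the tartrate-resistant acid phosphatase of osteoclasts and macrophages, differed by 2.60 in HE2 and by -1.44 in Flk1+ cells, -0.09 in HE1 and 3.87 in progenitors, so that its rise in progenitors was the larger. Of the 29 myeloid genes, 5 were called in this test (Fcer1g, Fcgr3, Tyrobp, Ncf1 and Cd14), beside 0.507% of genes with a symbol (0.363% higher, 0.144% lower). Fcgr3 (1.41 (SE 0.146, adjusted p = 0.0103)) and Ncf1 (1.39 (SE 0.183, adjusted p = 0.0214)) passed the adjusted threshold, as did the chemokine receptors Cxcr2 (1.18 (SE 0.143, adjusted p = 0.0157)) and Cxcr3 (1.12 (SE 0.148, adjusted p = 0.0216)).

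Some falls also departed from the mean of the 3 other populations. Crip1 differed by -3.57 in HE2 and by -0.17 in Flk1+ cells, -2.39 in HE1 and -1.86 in progenitors, with a departure of -2.09 (SE 0.275, adjusted p = 0.0214). Lyve1 differed by -2.96 in HE2 and by -0.05 in Flk1+ cells, -2.40 in HE1 and -1.84 in progenitors, with a departure of -1.53 (SE 0.2, adjusted p = 0.0214). Their differences were lowest in HE2, but both also fell in HE1 and progenitors. The values near 0 in Flk1+ cells enter the mean, so these departures are not departures from HE1 alone. Rhox5 and Mgmt, the largest changes in HE2, were not called in this test: Rhox5 differed by 5.38 in Flk1+ cells, 4.56 in HE1 and 5.33 in progenitors, and Mgmt by -4.27 in Flk1+ cells, -6.19 in HE1 and -4.35 in progenitors. The Sp1 probe fell by 2.56 in HE2 and differed by -2.28 in Flk1+ cells, -3.28 in HE1 and -2.90 in progenitors.

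**Figure D5:**
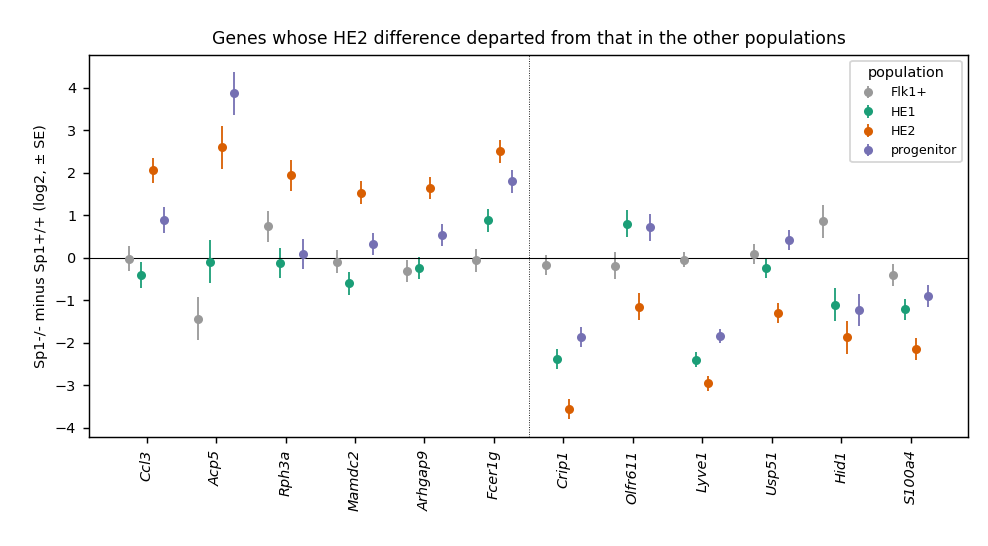
Difference between Sp1-/- and Sp1+/+ (log2, y axis, ± SE from the limma fit) in each of the 4 populations for the 6 genes highest and 6 genes lowest in HE2 relative to the mean of the other 3 populations, among genes called in both tests. Crip1 and Lyve1 are near 0 in Flk1+ cells, lower in HE1 and progenitors and lowest in HE2, and Acp5 is higher in progenitors than in HE2.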

How the data were processed

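RNA from sorted cells was labelled with Cy3 and hybridised to 16 Agilent mouse 8x60K arrays, 1 colour each. According to the study's methods, the authors extracted signals with Agilent Feature Extraction 10.7.1.1 and used limma with normexp background correction, an offset of 16 and quantile normalisation. The deposited log2 values followed an offset of 50 instead: the values recomputed from the deposited median signal intensities differed by at most 0.026 with offset 50 and by up to 1.63 with offset 16. The larger offset compresses fold changes of dim genes.

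Deposited log2 values were averaged over spots of 1 probe. Of 55681 probes, 26582 were matched through their accession to RefSeq (GRCm38.p6) and 16 by symbol, and 29083 kept the name in the file. The brightest probe stood for a gene, and of 296 further probes of called genes 261 moved the same way. Genes with a log2 value of at least 6 on 1 array or more were tested (37149) with limma 3.58.1 in R 4.3.3, as 1 fit of 8 groups with 8 residual degrees of freedom. A call needed p of 0.01 or less and a 2-fold change, as in the study's methods. Where no array of a group had a gene well above background, "at least" compares the other group's mean with the higher of the gene's own signal and the lowest signal well above background. Agilent's processed signal intensities, deposited by the authors in the same array files, served as an alternative. In simulated arrays with 200 of 55532 probes changed, 98% were recovered, with 36 false calls. All planted changes were larger than the 2-fold cut, so recovery of changes near the cut was not measured. The simulated noise was independent between probes and held no difference of cell line, slide or cell mixture.

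Named genes were the Sp family and sort markers, the 12 largest rises and 12 largest falls with a symbol that did not overlap and were above background on both arrays of the higher group, called members of the lists (or the brightest where fewer than 2 were called), markers of each cell type, and the 6 genes highest and 6 lowest against the other populations. Some genes that the rule allows are not reported here. The populations, lists and rules were chosen with earlier results of these data known. Same-numbered HE2 arrays did not deviate together (r = -0.17), so replicate numbers were not used as pairs.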

Additional observations from a re-analysis of the deposited data

Results flagged for a closer look

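For 118 genes the HE2 difference departed from the mean difference in the 3 other populations by a test of the departure itself. Of the 6 highest that were also called within HE2, Ccl3 departed by 1.90, Acp5 by 1.82, Rph3a by 1.70, Mamdc2 by 1.65, Arhgap9 by 1.65 and Fcer1g by 1.64, all on the log2 scale. Rph3a read 7.02 and 6.73 on the Sp1+/+ arrays and 8.40 and 9.23 on the Sp1-/- arrays, and Mamdc2 read 8.96 and 9.01 on the Sp1+/+ arrays and 10.10 and 10.93 on the Sp1-/- arrays, with Sp1-/- replicate 2 the highest array for both. Of the 6 lowest, Crip1 departed by -2.09, the olfactory receptor gene Olfr611 by -1.59, Lyve1 by -1.53, Usp51, a deubiquitinase gene, by -1.39, Hid1 by -1.38 and S100a4 by -1.30. Adjusted p was 0.05 or less for Crip1 and Lyve1 among these 12, and between 0.0965 and 0.542 for the others. Olfr611 was lower in Sp1-/- HE2 cells (-1.15) but differed by -0.19 in Flk1+ cells, 0.80 in HE1 and 0.72 in progenitors. Without Sp1+/+ replicate 2 the departure of Acp5 was 1.16 and that of Hid1 was -0.99, and neither was called, nor was either without Sp1-/- replicate 1 (1.93 and -1.56) or without Sp1-/- replicate 2 (1.71 and -1.20). Rph3a was not called without Sp1+/+ replicate 2 (1.56) or without Sp1-/- replicate 2 (1.29).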

How the results depend on the processing

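Sp1 stayed called under every alternative, at -2.25 to -2.87 with 1 HE2 array left out. The 729 calls became 932 with the methods' offset of 16 (719 shared), 868 without background correction, 639 with probes averaged, 681 with the HE2 arrays alone (656 shared), 509 at an adjusted p of 0.01 (191 higher), and 1725 (998 higher, 727 lower, 683 shared) with processed signals scaled to the 75th percentile, where the median difference of all genes was 0.079. Leaving out 1 HE2 array gave 641 to 989 calls, 259 to 412 higher and 377 to 646 lower. The 118 departures from the other populations became 180 (59 lower) with offset 16, 365 (216 higher, 149 lower) with processed signals, 26 (18 higher, 8 lower) at an adjusted p of 0.05, and 1 (1 higher, 0 lower) at 0.01, and the lower ones numbered 53 without background correction. With 1 array left out they ranged from 108 to 235 (78 to 171 higher, 24 to 144 lower). With the replicate number as a block, 736 genes were called in HE2, and with the Sp1-/- HE2 numbers crossed 729. The numbers share only the row of the slide, and pairing them changed no count by more than 1.5 times. Of 167 named genes and called list members, 90 lost their call or changed sign under at least 1 alternative, 5 of them by sign, none of which was called: with 1 array left out Sp2 ranged from -0.205 to 0.025, Sp3 from -0.77 to 0.51, Sp8 from -0.17 to 0.10, Kit from -0.385 to 0.145 and Tek from -0.755 to 0.175, and with processed signals Sp2 was 0.0164 and Sp8 was 0.163. The cause was not tested. A block for slide could not be fitted, since slide follows genotype. Signal over background limits 7011 genes, which were tested but not above background on any HE2 array.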

Other observations

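Some called genes outside the lists were chosen after their values were seen, and carry no test of a group. Further enzymes of fatty acid oxidation were lower in Sp1-/- HE2 cells. Eci2, an enoyl-CoA isomerase, read 12.99 and 12.82 on the Sp1+/+ arrays and 10.21 and 10.44 on the Sp1-/- arrays, and Hadh, a hydroxyacyl-CoA dehydrogenase, read 12.56 and 12.56 on the Sp1+/+ arrays and 10.60 and 10.73 on the Sp1-/- arrays. Their differences were -2.58 and -1.90, beside -2.55 for Eci3 and -1.52 for Acaa2, a thiolase of the mitochondrial cycle. Signalling genes of white blood cells were higher. Vav1, an exchange factor for Rac, read 11.56 and 11.37 on the Sp1+/+ arrays and 12.82 and 13.38 on the Sp1-/- arrays, and the lipid kinase Pik3cd read 9.22 and 9.0 on the Sp1+/+ arrays and 11.02 and 10.92 on the Sp1-/- arrays. The kinase Btk (1.78), the lipid kinase Pik3cg (1.34), the actin bundler Lcp1 (1.81) and the myosin Myo1f (1.87) rose as well.

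Some genes of meiosis and of the piRNA pathway, which silences transposons in germ cells, were also among the called rises. They too were chosen after their values were seen, and in the germline list above only Rhox5 and Tex19.1 were called. Stag3, a meiotic cohesin, read 9.01 and 8.92 on the Sp1+/+ arrays and 10.85 and 10.68 on the Sp1-/- arrays, a rise of 1.80 (SE 0.118, adjusted p = 8.64e-06). Tdrd5 (1.59) and the piRNA-trimming enzyme Pnldc1 (1.49) were higher on both Sp1-/- arrays than on either Sp1+/+ array. Tex11 was at least 3.16-fold higher and Rnf17 at least 2.07-fold higher, since neither was well above background on a Sp1+/+ array.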
